A study of Mus musculus with 10 samples.

Results

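The genes described here encode plasma proteins that the liver makes, read as transcripts in skeletal muscle. They were taken from a list of 40 gene symbols matched by name to the rows of a count table. Of the 40, 39 had a row among 15883 genes, and Serpina1a is not analysed here. The list was drawn up with the difference between the groups in these same libraries known, so the levels of its members are a description and carry no test.

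The tissue was biceps femoris, a muscle of the hindlimb. All 10 mice were male C57BL/6J animals, 5 weeks old, that had gone 16 hours without food. The transgenic group holds 5 libraries of mice with a Zfp407 transgene, which codes for a zinc finger protein, and the wild-type group holds 5 libraries. Total RNA was used. The sources used here do not name the promoter of the transgene or the number of founder lines. A column's name tells its group and a number, which stands for a library in the text, but no mouse. CPM is a gene's count divided by the TMM-scaled total of its library, in parts per 1e6, where TMM corrects for differences in library composition.

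Hepatocytes secrete most proteins of blood plasma. Albumin, encoded by Alb, is the most abundant of them and carries fatty acids and hormones. Apolipoproteins package lipids, fibrinogen forms the clot, and serpins and inter-alpha-trypsin inhibitors restrain proteases. Skeletal muscle fibres are not a known main source of these proteins, while adipocytes and macrophages are known to transcribe a few of the genes, among them C3 and Hp. In bulk tissue, fewer cells of a type and less RNA per cell cannot be told apart.

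Transcription of many of these genes in hepatocytes is known to depend on HNF1, a homeodomain factor. RefSeq promoter windows on GRCm38.p6, from 250 bases before to 50 bases after each start, were matched for 31 of the 39 genes, and a gene with several windows counts once, as holding a motif where any of them does. The albumin window and those of the 3 fibrinogen genes are shown because Alb is the gene all others are set against and the fibrinogen genes form 1 protein from neighbouring loci. Capitals mark 3 motifs on either strand: GTTAAT, known as the half-site of HNF1, then CCAAT, the CCAAT box, and TATAAA, the TATA box. The marked motifs do not overlap each other.
Alb, chr5:90460620-90460919, plus strand: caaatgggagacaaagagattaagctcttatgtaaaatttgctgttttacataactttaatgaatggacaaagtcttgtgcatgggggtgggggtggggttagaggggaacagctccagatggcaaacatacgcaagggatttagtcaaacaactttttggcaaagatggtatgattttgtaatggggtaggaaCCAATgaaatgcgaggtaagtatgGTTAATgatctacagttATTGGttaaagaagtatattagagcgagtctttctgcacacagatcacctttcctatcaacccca
Fga, chr3:83025903-83026202, plus strand: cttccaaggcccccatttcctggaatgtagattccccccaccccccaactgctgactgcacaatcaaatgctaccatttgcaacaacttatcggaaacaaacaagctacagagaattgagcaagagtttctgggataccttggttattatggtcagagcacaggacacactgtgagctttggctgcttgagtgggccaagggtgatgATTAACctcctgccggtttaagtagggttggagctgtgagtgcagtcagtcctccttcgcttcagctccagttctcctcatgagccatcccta
Fgb, chr3:83049814-83050113, minus strand: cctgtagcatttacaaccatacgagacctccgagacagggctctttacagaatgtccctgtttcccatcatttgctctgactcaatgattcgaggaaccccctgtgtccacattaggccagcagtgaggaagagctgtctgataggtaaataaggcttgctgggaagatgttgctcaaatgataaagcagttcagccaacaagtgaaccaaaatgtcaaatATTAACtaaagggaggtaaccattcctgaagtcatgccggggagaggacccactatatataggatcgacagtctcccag
Fgg, chr3:83007474-83007773, plus strand: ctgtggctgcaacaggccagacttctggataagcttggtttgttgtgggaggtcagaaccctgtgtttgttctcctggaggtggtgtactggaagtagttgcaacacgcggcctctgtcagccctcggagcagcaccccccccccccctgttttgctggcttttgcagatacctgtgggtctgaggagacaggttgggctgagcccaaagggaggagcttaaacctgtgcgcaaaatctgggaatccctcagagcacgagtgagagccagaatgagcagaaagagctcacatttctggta
The albumin window holds the HNF1 half-site and the CCAAT box in both directions, the Fga and Fgb windows hold the HNF1 half-site read from the other strand, and the Fgg window holds none of the motifs. The HNF1 half-site was found for 12 of the 31 genes (38.7%) and for 2228 of all 27025 genes with a window (8.24%). The members with it were Alb, Gc, F2, F13b, Fga, Fgb, Vtn, Itih1 and the 4 Serpina1 genes measured. The windows of these 4 Serpina1 genes hold the same bases around the motif, so they are not separate finds, though each is counted in the 38.7%. The CCAAT box was found for 45.2% of the matched members and 41.1% of all genes, and the TATA box for 25.8% of the matched members and 15.7% of all genes. CAAAGTCCA, a site of HNF4, was found for 0 of the 31 members and 0.555% of all genes. These are matches of letters and not sites of binding.

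Zfp407 itself checks the labels. It had 489 ± 124 CPM in transgenic libraries and 22.9 ± 1.73 CPM in wild-type libraries (SD, n = 5 each), with an edgeR log2 fold change of 4.41 ± 0.19 (SE; Benjamini-Hochberg adjusted p = 8.15e-08). Total counts ran from 15162400 to 19047834 in the transgenic group and from 13530367 to 17814900 in wild type. Transgenic library 5 stood apart for the plasma protein genes: all 39 measured members were higher in it than in any other transgenic library. Muscle genes marked every library, with 10 muscle markers summing to between 143810 and 176221 CPM in the transgenic group and between 173258 and 239025 CPM in wild type. The rows Lars2, Gm15564 and Gm15662 together took from 9.62% to 17.3% of counts in transgenic libraries and from 14.3% to 33.9% in wild-type libraries.

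Together the 39 genes took a small share of each library that was larger in every transgenic library than in any wild-type library. The share was 0.0844%, 0.141%, 0.0773%, 0.214% and 0.766% of counts in transgenic libraries 1 to 5, against 0.0282%, 0.0289%, 0.0262%, 0.0272% and 0.0359% in wild-type libraries 1 to 5. The exact Clopper-Pearson 95% interval in transgenic library 5, which covers counting error only, was 0.761% to 0.770%. The means were 0.256 ± 0.290% in the transgenic group and 0.0293 ± 0.00383% in wild type (SD, n = 5 each), a fold of 8.75. Without C3, Trf, Hp, Rbp4, Azgp1 and Serpina3k, which other cell types also make, the means were 0.213% in the transgenic group and 0.0153% in wild type, a fold of 13.9. These 6 were picked with these data known, and the list may not be complete. They include C3, Trf and Hp, for which the groups overlapped, so this is not the fold of genes made by liver alone. The mean of transgenic libraries 1 to 4 was 0.129%. Alb alone made up 27.1% to 40.5% of the members' counts in transgenic libraries and 11.9% to 30.6% in wild-type libraries. After library 5, transgenic library 4 came next for 34 of the 39 genes. In wild type, library 5 was the highest for 24, and library 4 or 5 for 29. From low to high, Alb ranked the libraries 1, 3, 2, 4 and 5 in both groups. The cause of this shared order was not tested.

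Of the 38 members that passed a filter on low counts, all but Fetub, 33 were called higher at an edgeR Benjamini-Hochberg adjusted p of 0.05, 0 were called lower and 5 were not called. Over all 13338 genes tested, edgeR called 4.28% higher and 1.05% lower. At an unadjusted p of 0.05, 37 members were higher and 0 lower, beside 11.2% and 6.87% of all genes tested. DESeq2 called 38 of the 39 higher, all but Hp, and 0 lower, beside 5.66% higher and 2.08% lower over the genes it tested. The choice of the genes used this contrast, so these counts are given without a reading. The 5 members without an edgeR call were Hp, C3, Vtn, Trf and Apoc1. Median log2 fold change of the 38 was 3.44, from 0.20 for Hp to 4.29 for Apon, beside a median of 0.003 over all genes. Every transgenic library lay above every wild-type library in 34 of the 39 members, beside 5% of all rows of the table. Without transgenic library 5 the median was 2.30, and without transgenic libraries 4 and 5 it was 1.83. Without wild-type library 3 the calls over all genes were 450, against 711 with all libraries, and the members called were 19; the 14 that lost their call were Ambp, Apoc3, Apoh, F2, Fgg, Itih2, Itih3, Itih4, Kng1, Rbp4, Serpina1c, Serpina1d, Serpinc1 and Ttr.

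**Figure D1:**
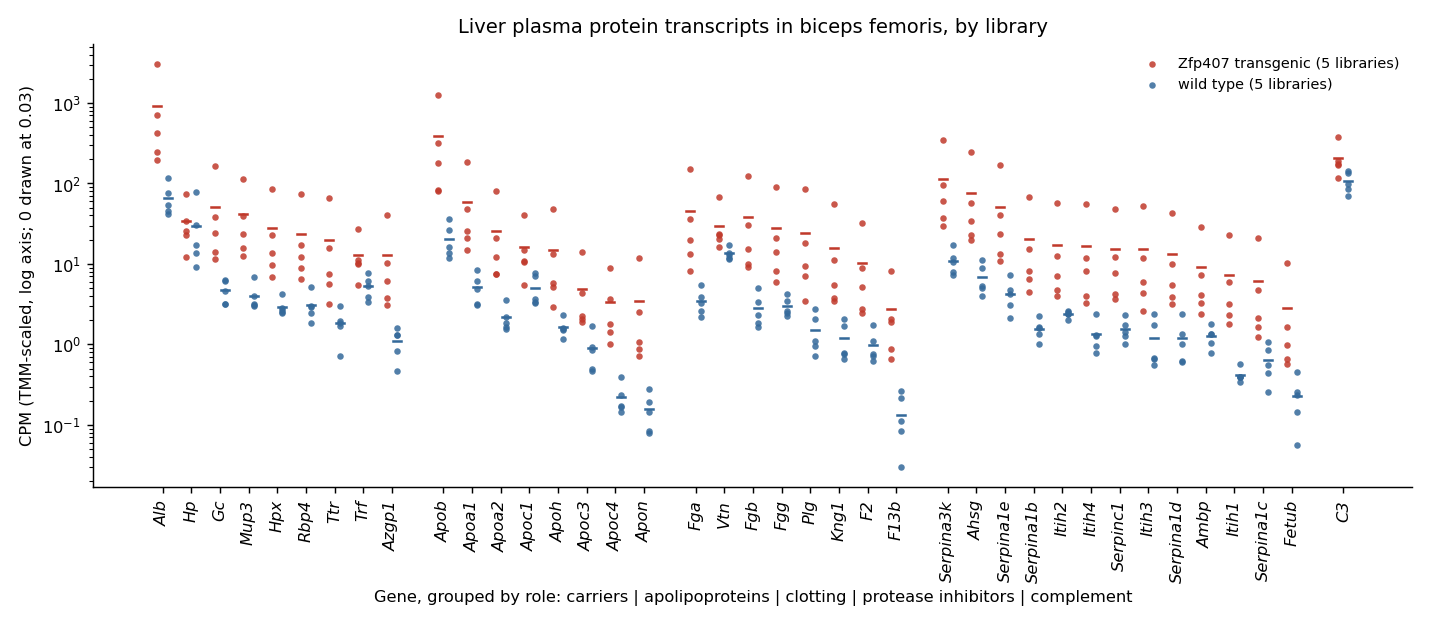
CPM (log axis) of the measured plasma protein genes, grouped by role along the horizontal axis, with 1 point per library, transgenic left of wild type for each gene, and a dash at the mean of 5 libraries. Transgenic library 5 is the highest transgenic library for all 39 genes, and groups do not overlap in 34 of them.

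Among the carrier proteins, Alb stood at 197, 419, 249, 715 and 3038 CPM in transgenic libraries 1 to 5, against 41.35, 54.0, 46.0, 76.8 and 116 CPM in wild-type libraries 1 to 5. The groups did not overlap, and transgenic library 5 held 7.69 times the mean of the other transgenic libraries. The log2 fold change was 3.79 ± 0.71 (SE), and 2.56 without transgenic library 5. Gc, the vitamin D binding protein, had 11.4, 24.5, 14.2, 38.7 and 165 CPM in transgenic libraries, against 3.15, 4.66, 3.16, 6.38 and 6.21 CPM in wild-type libraries. It ranked the transgenic libraries as Alb did. Both genes lie on chromosome 5 (GRCm38), Gc from 89417522 to 89457898 and Alb from 90460897 to 90476602. Hp encodes haptoglobin, which binds free hemoglobin. It had 23.0, 34.1, 12.3, 25.4 and 74.8 CPM in transgenic libraries, against 77.8, 30.2, 17.3, 13.5 and 9.10 CPM in wild-type libraries. The groups overlapped, and in wild type Hp was highest in the library where Alb was lowest.

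The other carriers were Mup3, a major urinary protein, Hpx, which binds heme, Rbp4, which carries retinol, Ttr, which carries thyroxine, Azgp1, and Trf, the iron carrier transferrin. Groups did not overlap for any of the first 5, with log2 fold changes from 2.94 ± 0.64 for Rbp4 to 3.53 ± 0.72 for Azgp1 (SE). Trf had 11.2, 10.4, 5.51, 9.93 and 27.2 CPM in transgenic libraries, against 7.64, 6.10, 5.27, 3.90 and 3.39 CPM in wild-type libraries. Its groups overlapped through transgenic library 3. Of the 50-base windows of the Trf transcript 79.8% also occur in the readthrough gene Gm20425, so that reads of both may have been shared or dropped.

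Among the apolipoproteins, Apob, the structural protein of very low density lipoprotein, had 80.25, 181, 82.0, 314 and 1266 CPM in transgenic libraries, against 11.8, 13.6, 16.0, 26.3 and 35.7 CPM in wild-type libraries. Its log2 fold change was 4.21 ± 0.75 (SE), and 2.99 without transgenic library 5. Apoa1, the main protein of high density lipoprotein, had 14.8, 25.5, 21.1, 47.6 and 186 CPM in transgenic libraries, against 3.07, 4.91, 3.16, 6.18 and 8.375 CPM in wild-type libraries. Both genes were separated between the groups and highest in library 5 of each group. Apoa2, also of high density lipoprotein, had 7.45, 12.3, 7.59, 21.2 and 80.8 CPM in transgenic libraries, against 1.65, 1.86, 1.55, 2.21 and 3.61 CPM in wild-type libraries. Apoh, Apoc3, Apoc4 and Apon were also separated, with log2 fold changes from 2.49 ± 0.61 for Apoc3 to 4.29 ± 0.93 for Apon (SE). Apon had few reads in wild type, with at most 0.277 CPM. Apoc1, a small apolipoprotein of triglyceride-rich particles, overlapped between groups, with 10.9, 10.6, 5.44, 15.0 and 40.2 CPM in transgenic libraries, against 7.01, 7.71, 3.27, 3.38 and 3.68 CPM in wild-type libraries.

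The fibrinogen chains are encoded side by side on chromosome 3 between 83007724 and 83049863 (GRCm38). Fga had 8.23, 19.7, 13.4, 36.4 and 150.4 CPM in transgenic libraries, against 3.23, 2.63, 2.16, 3.90 and 5.415 CPM in wild-type libraries. Fgb had 9.23, 15.4, 9.999, 30.8 and 124 CPM in transgenic libraries, against 1.65, 1.86, 2.33, 3.32 and 5.05 CPM in wild-type libraries. Both were separated between groups, with log2 fold changes of 3.71 ± 0.73 and 3.72 ± 0.73 (SE). Fgg, the third chain, had a log2 fold change of 3.22 ± 0.68 (SE). Vtn encodes vitronectin, an adhesion protein that binds the inhibitor of plasminogen activation, and had 16.0, 20.5, 23.4, 22.6 and 67.3 CPM in transgenic libraries, against 13.1, 11.9, 17.3, 13.7 and 11.6 CPM in wild-type libraries. Wild-type library 3 lay above transgenic library 1. F2, which encodes prothrombin, Plg, which encodes plasminogen, Kng1, which encodes kininogen, and F13b, the carrier subunit of factor XIII, were separated between the groups. F13b had 0.667 to 8.24 CPM in transgenic libraries, against 0 counts in wild-type library 1 and at most 0.260 CPM in the other wild-type libraries.

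Protease inhibitors formed the largest role group, with 13 measured genes. Serpina3k, which binds tissue kallikrein, had 29.5, 60.5, 37.7, 95.2 and 349 CPM in transgenic libraries, against 8.03, 10.5, 7.27, 11.7 and 17.3 CPM in wild-type libraries. Ahsg, fetuin-A, had 19.6, 33.9, 23.2, 56.9 and 246 CPM in transgenic libraries, against 4.02, 5.08, 5.33, 8.78 and 11.2 CPM in wild-type libraries. Serpina1e, one of the mouse copies of antitrypsin, had 10.96, 23.3, 13.2, 40.5 and 167 CPM in transgenic libraries, against 2.13, 4.24, 3.05, 4.69 and 7.29 CPM in wild-type libraries. None of these 3 overlapped between groups. Itih1, a heavy chain of inter-alpha-trypsin inhibitor, had 1.78, 3.21, 2.34, 6.05 and 22.97 CPM in transgenic libraries, against 0.394, 0.339, 0.388, 0.390 and 0.578 CPM in wild-type libraries, also with no overlap. Serpina1b, Serpina1c, Serpina1d, Serpinc1, which encodes antithrombin, Ambp, the precursor of bikunin, and Itih1 to Itih4, its heavy chains and a related protein, had log2 fold changes from 2.84 to 4.08. The Serpina1 genes share sequence: 74.2% of the 50-base windows of Serpina1c, 50.9% of Serpina1d, 35.8% of Serpina1b and 35.6% of Serpina1e occur in another gene, so their single values are uncertain. The share was 17.95% for Kng1, 15.6% for Mup3, 14.3% for Apoc4 and 14.04% for Serpina3k, and 0% for every other member except Trf, given above. Fetub, under the filter, had 0.570 to 10.3 CPM in transgenic libraries and 0.0555 to 0.455 CPM in wild-type libraries.

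C3, the central complement protein, had 189, 173, 118, 171 and 376 CPM in transgenic libraries, against 134, 141, 99.2, 70.4 and 85.3 CPM in wild-type libraries. Transgenic library 3 lay below wild-type libraries 1 and 2. Means were 205 ± 98.9 CPM in the transgenic group and 106 ± 30.6 CPM in wild type (SD, n = 5 each).

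To ask whether the members kept their proportions, each count was divided by the Alb count of the same library, which removes depth and scaling. Among 34 members other than Alb with a mean count of at least 5 in each group, the ratio varied far less across transgenic libraries than the level did. The median SD of the log2 ratio was 0.17 in the transgenic group, where the median SD of log2 CPM was 1.48. Transgenic library 5, the highest of its group for all 39 members, is part of that spread in level. Without it the median SD of the log2 ratio was 0.18, and the SD of log2 CPM was not computed. In wild type the median SD of the log2 ratio was 0.32, and that of log2 CPM 0.53. The ratio varied less than the level in 31 of the 34 members in the transgenic group, with Trf, Vtn and C3 as the exceptions, and in 22 of 34 in wild type. The share over all genes was not computed for these counts. The members were chosen from these same libraries, so the counts are given without a reading. The median of the observed SD over the SD that counting error gives was 1.74 in the transgenic group and 1.11 in wild type.

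**Figure D2:**
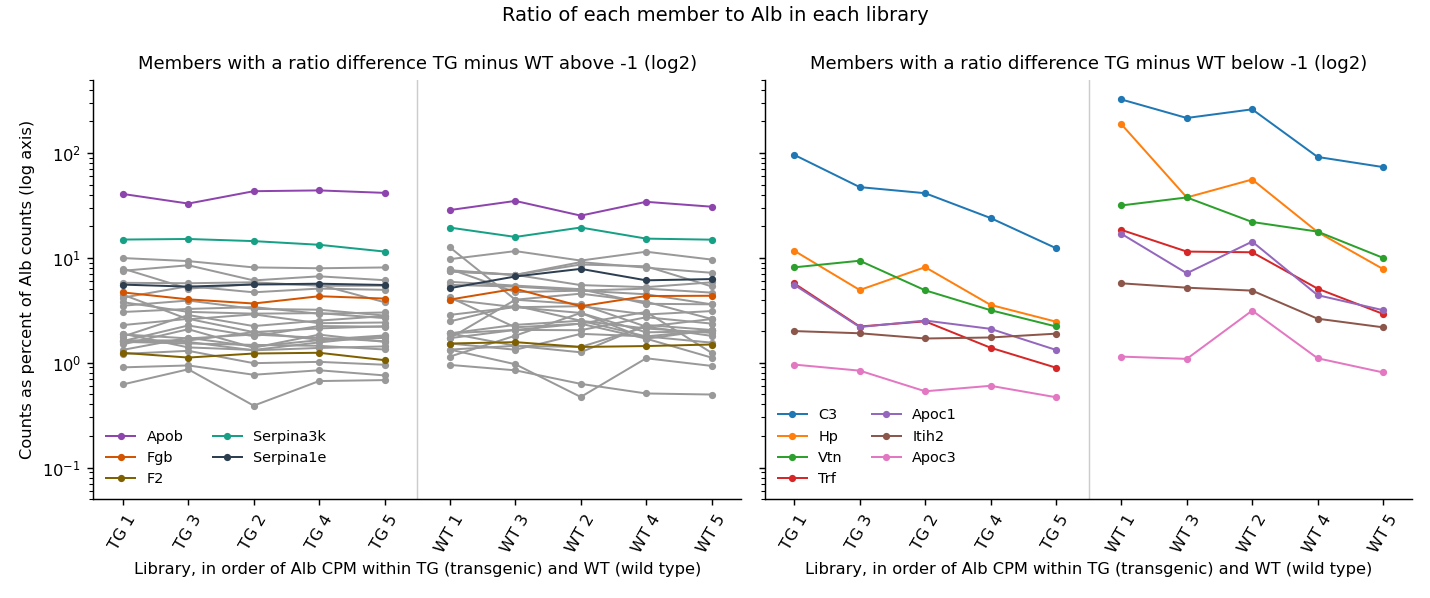
Ratio of each gene's count to the Alb count (percent, log axis) in each library, in order of Alb CPM within transgenic (left) and wild type (right). The left panel holds 27 genes whose mean log2 ratio in the transgenic group was no more than 1 below that in wild type, with 5 coloured, and the right panel the 7 genes beyond that, among them C3 at 96.0% in transgenic library 1 and 12.4% in transgenic library 5.

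Of the 34 ratios, that of Serpina1e had the smallest SD in the transgenic group. It stood at 5.55%, 5.57%, 5.32%, 5.67% and 5.51% of the Alb count in transgenic libraries, against 5.14%, 7.85%, 6.64%, 6.10% and 6.27% in wild-type libraries. In the transgenic group its log2 ratio had an SD that was 0.434 of what counting error gives, while its level varied by an SD of 1.57 in log2 CPM. Gc stood at 5.78%, 5.85%, 5.72%, 5.42% and 5.43% of Alb in transgenic libraries, against 7.62%, 8.63%, 6.88%, 8.31% and 5.34% in wild-type libraries. Apoa1 averaged 6.98 ± 1.03% of Alb in the transgenic group and 7.73 ± 0.877% in wild type (SD, n = 5 each). The groups overlapped for each of these 3 ratios.

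Apob differed from wild type in the other direction, with 40.7%, 43.2%, 32.9%, 44.0% and 41.7% of the Alb count in transgenic libraries, against 28.6%, 25.3%, 34.9%, 34.2% and 30.7% in wild-type libraries. Transgenic library 3 lay within the wild-type range. Apob, Itih1 and Plg were the 3 members with a higher mean log2 ratio in the transgenic group, by 0.40, 0.23 and 0.12, and the other 31 were below their wild-type ratio.

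Taking all 34, the median difference in mean log2 ratio, transgenic minus wild type, was -0.33, and 22 lay within 0.5 of 0. This difference is in essence a gene's own log2 fold change less that of Alb, on which the members were chosen, so its distance from other genes was set by the choice. Every transgenic ratio was below every wild-type ratio for 5 members, Vtn, Fgg, F2, Itih2 and Ambp, and above for 0, beside 84% and 0.00698% of all 14332 genes with that minimum, where again nothing is read from the contrast. F2 had a ratio of 1.24%, 1.22%, 1.12%, 1.24% and 1.06% in transgenic libraries, against 1.52%, 1.41%, 1.57%, 1.44% and 1.49% in wild-type libraries. By role, the median difference was -0.48 for carriers, -0.41 for apolipoproteins, -0.18 for clotting and -0.26 for protease inhibitors. With the sum of the other members as denominator in place of Alb the median difference was 0.50, so that its sign depends on the denominator.

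**Figure D3:**
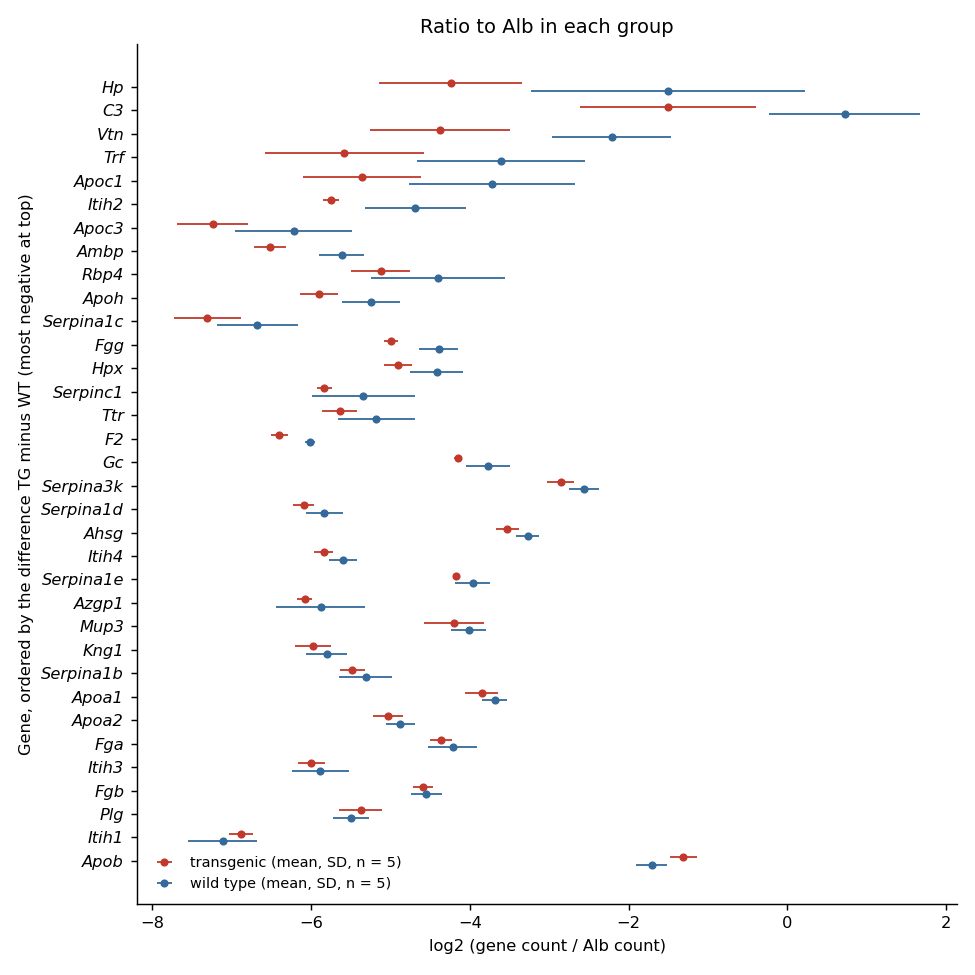
Mean log2 ratio of each gene's count to the Alb count, with bars of 1 SD over 5 libraries, for the 34 members with enough counts, transgenic above wild type for each gene and the most negative difference at the top. Hp, C3, Vtn, Trf and Apoc1 head the order, and Apob, with a difference of 0.40, ends it.

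Corrected for exon length, each of the 34 members averaged below Alb in both groups. Per kilobase of exon, Serpina3k stood at 15.8% of Alb in the transgenic group and 19.3% in wild type, Apoa2 at 13.4% in the transgenic group and 14.7% in wild type, and Apoa1 at 13.2% in the transgenic group and 14.7% in wild type. Apob, whose exons span 13934 bases against 2342 for Alb, was at 6.81% of Alb per kilobase in the transgenic group and 5.17% in wild type. C3 was at 20.1 ± 14.6% of Alb per kilobase in the transgenic group and 88.0 ± 49.3% in wild type, and Hp at 8.97 ± 5.47% in the transgenic group and 89.6 ± 107% in wild type (SD, n = 5 each).

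The 7 members with the most negative difference in mean log2 ratio to Alb stood at -2.74 for Hp, -2.22 for C3, -2.16 for Vtn, -1.97 for Trf, -1.64 for Apoc1, -1.07 for Itih2 and -1.02 for Apoc3. Hp stood at 11.7%, 8.15%, 4.93%, 3.56% and 2.46% of the Alb count in transgenic libraries, against 188%, 55.9%, 37.7%, 17.6% and 7.83% in wild-type libraries. C3 stood at 96.0%, 41.4%, 47.3%, 24.0% and 12.4% in transgenic libraries, against 324%, 261%, 216%, 91.7% and 73.4% in wild-type libraries. In both groups the library with the most Alb had the lowest ratio of both genes. Vtn stood at 8.12%, 4.90%, 9.38%, 3.17% and 2.22% in transgenic libraries, against 31.6%, 21.98%, 37.7%, 17.8% and 10% in wild-type libraries. Itih2 differed from these in that its transgenic ratio was steady, with an SD of 0.10 on the log2 scale.

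**Figure D4:**
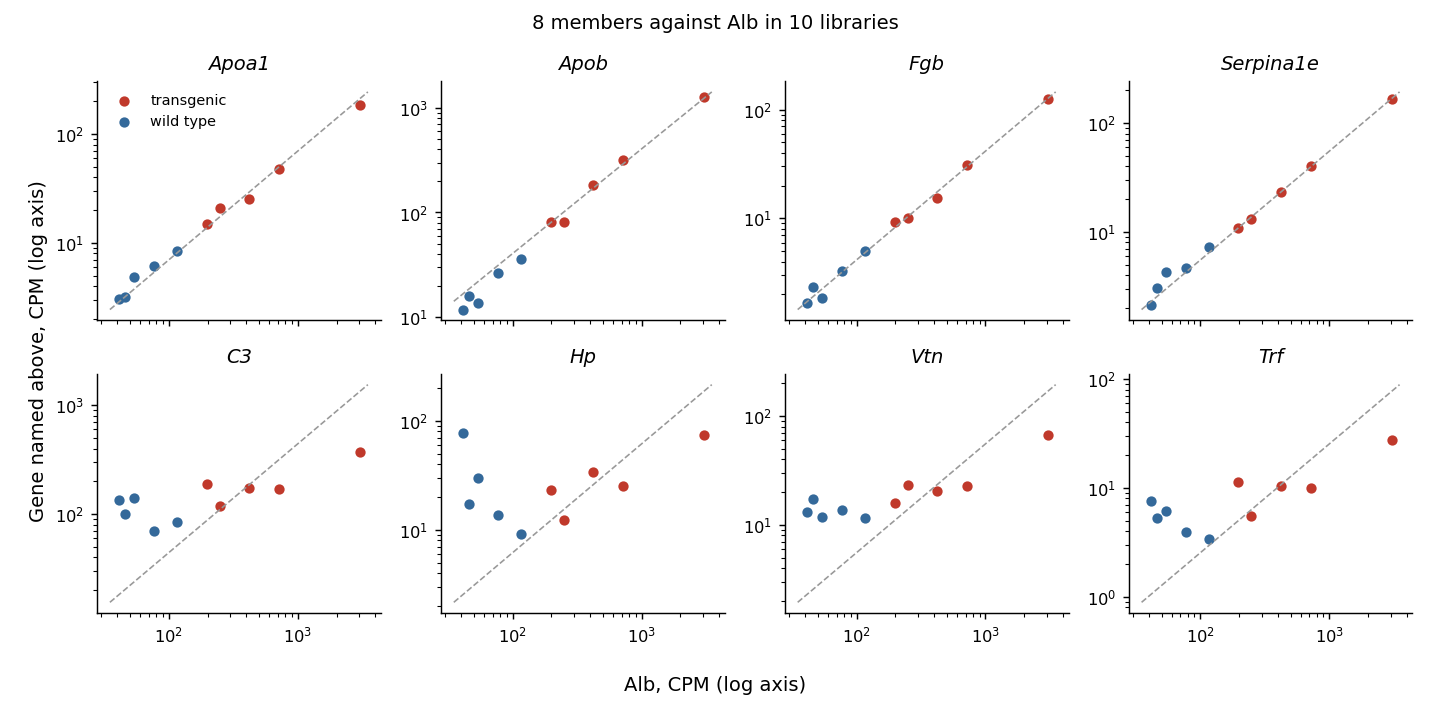
CPM of 8 members against CPM of Alb (log axes) in 10 libraries, where the dashed line marks the mean transgenic ratio to Alb. Points of Apoa1, Fgb and Serpina1e lie near the line in both groups and wild-type points of Apob lie below it, while wild-type points of C3, Hp, Vtn and Trf lie above it.

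Pairs of genes whose products act together were set side by side, chosen after their values were seen. Fgb counts were 0.865 ± 0.148 of Fga counts in the transgenic group and 0.816 ± 0.216 in wild type, and Apoa2 counts 0.445 ± 0.0549 of Apoa1 counts in the transgenic group and 0.440 ± 0.0755 in wild type (SD, n = 5 each). Both pairs overlapped between groups. Fgg counts were 0.760 ± 0.110 of Fgb counts in the transgenic group and 1.14 ± 0.248 in wild type (SD, n = 5 each), also with overlap. Itih1 and Itih2, the heavy chains of inter-alpha-trypsin inhibitor, had a ratio of 0.400 to 0.493 in transgenic libraries and 0.129 to 0.229 in wild-type libraries, with no overlap. The wild-type ratio rests on 4 to 8 Itih1 counts per library. Not all pairs examined are shown, and no share over other pairs of genes stands beside the lack of overlap. Itih2 lies on chromosome 2 from 10094593 to 10131396, while Itih4, Itih3 and Itih1 lie side by side on chromosome 14 from 30886476 to 30943289 (GRCm38).

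Some other transcripts had a ratio to Alb with a spread as small as that of members. Over 12222 genes with a mean count of at least 20, ranked by the SD of the log2 ratio to Alb over 10 libraries, 10 of the first 20 were members, Alb included. The 5 steadiest others were Ces1c, a carboxylesterase, Slc27a2, which activates and imports fatty acids, Mug1, a murinoglobulin, Cps1, the first enzyme of the urea cycle, and Tat, which degrades tyrosine. Ces1c ran from 1.69% to 2.23% of the Alb count over the 10 libraries (SD 0.12 on the log2 scale), and Cps1 from 9.71% to 15.6%. The SD was below 0.5 for 24 members, Alb included, and 64 other genes. An SD over all 10 libraries holds the difference between the groups, on which the members were chosen, so that their place in this order is no result. The Alb count is shared by all of these ratios within a library.

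Of 61 other plasma protein genes in the table, 43 were tested, 21 were called higher by edgeR and 0 lower, with a median log2 fold change of 2.22; none was lower at an unadjusted p of 0.05 or by DESeq2, which also holds for the liver enzymes and the hepatocyte membrane genes. The 3 with the highest CPM were not called, with log2 fold changes of 0.18 for Sepp1, a selenium carrier, 0.62 for Apoe and 0.12 for Fn1, which encodes fibronectin. Among liver enzymes, 30 of 35 tested were called higher and 0 lower, with a median of 3.47. Cps1 had a log2 fold change of 4.06 ± 0.76, while Cyp2e1, which adipose tissue also transcribes, had 0.56 ± 0.44 and Pck1 0.64 ± 0.63 (SE). Hepatocyte membrane proteins had 6 of 9 called higher and 0 lower, with a median of 3.40, and the 3 with most CPM had log2 fold changes of 0.44 ± 0.27 for Slc38a3, an amino acid transporter, 3.55 ± 0.64 for Slco1b2, an organic anion importer, and 1.71 ± 0.54 for Slc10a1, the bile acid importer (SE). Of 6 hepatocyte transcription factors tested, edgeR called 2 higher, Hnf4a and Creb3l3, and 0 lower, and did not call Cebpb, Cebpa and Prox1, the 3 with most CPM. At an unadjusted p of 0.05 Prox1 and Nr5a2 were also higher and 0 were lower, and DESeq2 called 5 higher and 0 lower. Hnf4a, named after its values were seen, had 23, 60, 21, 79 and 380 counts in transgenic libraries, against 5, 6, 7, 16 and 11 counts in wild-type libraries.

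Markers of non-parenchymal liver cells had 0 calls by edgeR in 4 genes tested of Kupffer and liver endothelial cells and in 3 of bile duct and stellate cells. At an unadjusted p of 0.05, 1 was higher, Timd4, and 1 lower, Stab2, in the first list and 0 in the second. DESeq2, which tests more genes, called 3 higher in the first, Cd5l, Clec4f and Dnase1l3, and 0 in the second. Clec4f, a Kupffer cell lectin under the filter and named after its values were seen, had 3, 7, 3, 18 and 39 counts in transgenic libraries, against 1, 0, 1, 1 and 3 counts in wild-type libraries. Marco, of macrophages, did not share that order, with 166, 142, 4, 6 and 3 counts in transgenic libraries, against 15, 1, 0, 0 and 0 counts in wild-type libraries. Markers of fetal liver had 0 calls by edgeR and 0 by DESeq2 in 2 genes tested, and both genes passed an unadjusted p of 0.05, Gpc3 higher and H19 lower. No row of the table matched a kidney or pancreas marker, and the 2 intestinal markers found summed to at most 2.19 CPM.

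Adipocyte markers had 0 calls by edgeR and 0 by DESeq2 in 8 tested, with 0 past an unadjusted p of 0.05 and a median log2 fold change of -0.10. Summed without Car3, which muscle also transcribes, the 8 other markers stood at 1033, 695, 202, 286 and 403 CPM in transgenic libraries, against 1236, 722, 447, 394 and 229 CPM in wild-type libraries. In wild type this sum ranks the libraries as Hp and Trf do, and so does the share of the rows Lars2, Gm15564 and Gm15662, which was 33.9%, 29.3%, 19.9%, 18.2% and 14.3% of counts. In the transgenic group neither measure ranks all 5 libraries as Hp or Trf does. From low to high, the adipocyte sum ranks them 3, 4, 5, 2 and 1, and Trf ranks them 3, 4, 2, 1 and 5. Transgenic libraries 1 to 4 thus stand in the same order in both. Hp ranks the transgenic libraries 3, 1, 4, 2 and 5. The part of either measure in the levels of Hp and Trf was not tested. Leukocyte markers, 11 in the table, summed to between 132 and 330 CPM in transgenic libraries and between 106 and 200.2 CPM in wild-type libraries, and erythroid markers to between 60.6 and 232 CPM in transgenic libraries and between 46.1 and 118 CPM in wild-type libraries. Of 7 leukocyte markers tested, edgeR and DESeq2 each called 1 higher, Cd74, and at an unadjusted p of 0.05 Ptprc was also higher and 0 were lower. Of 5 erythroid markers tested 0 were called by edgeR or DESeq2, and 0 passed an unadjusted p of 0.05. Their part in the levels of C3 and Hp was not tested. In transgenic library 5, where all members peaked, the leukocyte and erythroid sums were the lowest of the transgenic group. Whether either bears on the levels of the members was not tested.

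**Figure D5:**
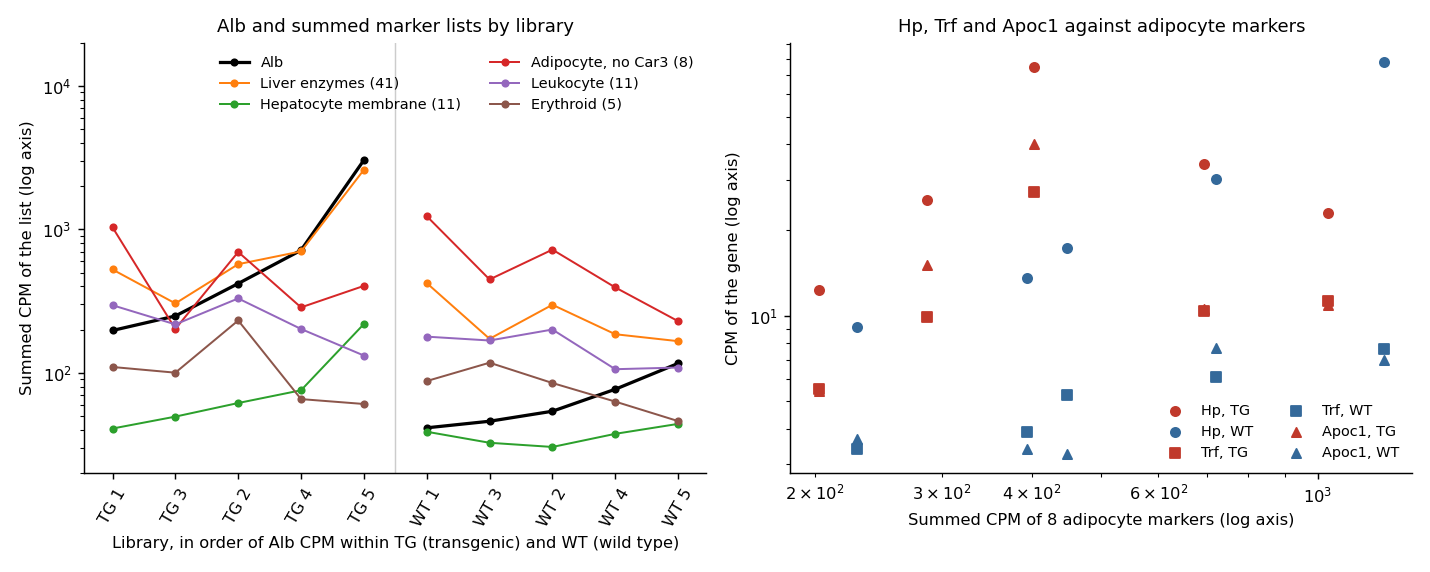
Left, Alb and summed CPM (log axis) of marker lists in each library, in order of Alb CPM within transgenic and then wild type. Right, CPM of Hp, Trf and Apoc1 against the summed CPM of 8 adipocyte markers (log axes), where in wild type Hp runs from 9.10 CPM at 229 CPM of markers to 77.8 CPM at 1236 CPM.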

How the data were processed

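The data are RNA-seq counts from mouse muscle, 5 transgenic and 5 wild-type libraries, grouped by column names. The submitters' processing notes name build GRCm38.p4 and DESeq2 1.10, HTSeq 0.6.1, Bowtie2 2.2.6, TopHat2 2.1 and SAMtools 1.2. Neither counting settings, strandedness nor gene models are named there. The table deposited by the authors holds raw counts, not normalized. It also holds the authors' mean signal per gene, their log2 fold change and its standard error, a score (the Wald statistic) and p-values, raw and adjusted. The authors' deposited table puts 38 of 39 members, with a median log2 fold change of 3.44, under an adjusted p of 0.05, as it does 7.29% of all 15883 rows.

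Here the counts passed through filterByExpr and TMM scaling of edgeR 4.0.16 (R 4.3.3). The test of the transgenic group against wild type was edgeR's quasi-likelihood test (glmQLFit, then glmQLFTest), adjusted by Benjamini-Hochberg over 13338 genes. Standard errors come from the fold change and its F statistic. Ratios to Alb used counts with 0.5 added and ratios in percent used counts as deposited. DESeq2 1.42.0 was an alternative, with other scalings, filters, denominators and left-out libraries. Coordinates and exon lengths come from GENCODE M21 (GRCm38). The fit was tested on simulated data.

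The members, their roles and all gene lists were chosen with earlier results of these data known. The rule for genes described in full takes Alb, the 3 members of each role with the highest CPM and the 2 members furthest from Alb in each direction of ratio. Trf, Apoc1 and the F2 ratio were added after their values were seen. Of other genes it takes the 5 steadiest against Alb and up to 3 per list, and Zfp407. The series describes separate mice, but columns carry no mouse. Within each group every pair of libraries differed beyond sampling noise (lowest chi-square per degree of freedom 15.9). The gene spans of 7 members, introns included, overlap that of another row. For Serpinc1, Apoh, Serpina1c and Plg the other gene lies on the opposite strand, and for Serpina1b, Serpina1d and Serpina3k on the same strand. Strandedness is not known, and whether counted reads came from the overlapping stretches was not tested.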

Additional observations from a re-analysis of the deposited data

Results flagged for a closer look

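In 148 groups of 5 libraries examined, a library was flagged 8 times for lying far from the other 4, where chance flags about 1 group in 20. Transgenic library 5 held 0.766% of counts in the plasma protein genes, beside 0.0773% to 0.214% in the other transgenic libraries. In the same library Vtn had a log2 CPM of 6.08, beside 4.01 to 4.55. The log2 ratio of Apob to Alb was -1.60 in transgenic library 3, beside -1.30 to -1.18. In wild-type library 5 the plasma protein genes held 0.0359% of counts, beside 0.0262% to 0.0289% in the other wild-type libraries. There Hpx had a log2 CPM of 2.11, beside 1.36 to 1.55, and Itih1 one of -0.52, beside -1.12 to -0.95. The log2 ratio of Apoc3 to Alb was -4.96 in wild-type library 2, beside -6.90 to -6.34, and that of Fga to Alb was -3.66 in wild-type library 1, beside -4.41 to -4.29.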

How the results depend on the processing

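The median log2 fold change of the members was positive under every alternative run, at 1.83 without the transgenic libraries 4 and 5 together, and between 2.30 (transgenic library 5 left out) and 3.69 with 1 library left out. Members called were 33, and 8 at an adjusted p of 0.01, 38 with DESeq2, 34 with no filter, 31 without transgenic libraries 4 and 5, and 19 (without wild-type library 3) to 37 (without transgenic library 3) with 1 library left out. Over all genes, 711 were called (5.33% of 13338 tested), 252 at an adjusted p of 0.01 and 776 with no filter. The total was 486 without transgenic libraries 4 and 5, and 450 to 1116 with 1 library left out. DESeq2 called 1230 of 15882 genes, 5.66% higher and 2.08% lower. Hp, which has no call, changed sign: its log2 fold change ran from -0.31 (without transgenic library 5) to 0.92 (without wild-type library 1) with 1 library left out, was -0.01 and -0.03 without wild-type libraries 4 and 5 in turn, and was -0.35 without both transgenic libraries 4 and 5. Vtn was called without transgenic library 1 or 5, and Apoc1, C3 and Trf without transgenic library 3. The mean share of counts ran from 0.129% to 0.301% in the transgenic group and from 0.0276% to 0.03004% in wild type with 1 library left out. It was 0.159% in the transgenic group and 0.0231% in wild type without Alb (a fold of 6.88), 0.213% in the transgenic group and 0.0153% in wild type without 6 members also made elsewhere, and 0.384% in the transgenic group and 0.0475% in wild type over counts without the 3 largest rows (a fold of 8.08). The median log2 ratio to Alb, transgenic minus wild type, ran from -0.37 to -0.30 with 1 library left out. It was -0.21 with Apoa1 as denominator and 0.50 with the sum of the other members as denominator. With 1 library left out, the median over members of the SD of the log2 ratio ran from 0.156 to 0.197 in the transgenic group. In wild type this median ran from 0.281 to 0.328. The cause of these changes was not tested. No paired analysis was possible because the columns carry no number that links a library to a mouse or to a library of the other group. Members with few wild-type counts, such as Apon and F13b, are limited by depth.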
